A study of Rattus norvegicus with 10 samples.

Results

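The mitochondrial ribosomal proteins were described here through 66 rat genes measured in the testes of pups on postnatal day 6. The genes were chosen by name: the RefSeq transcript of each array probe was matched to a rat symbol, and every symbol that begins with Mrpl or Mrps followed by a digit was taken. This gave 77 of the 30367 probes on the array, of which 75 were among the 21892 probes tested. The 66 genes stood among 11561 named genes with a tested probe. The RefSeq table lists 78 protein-coding genes with such symbols, and the other 12 (among them Mrps7, Mrpl28 and Mrpl43) were not analysed here.

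Mitochondria carry ribosomes of their own, which translate the few messages of mitochondrial DNA, all of them for membrane subunits of the respiratory chain and the ATP synthase. The RNA of these ribosomes comes from mitochondrial DNA, whereas each of their proteins is encoded in the nucleus, made in the cytosol and imported. A large subunit forms the peptide bonds and a small subunit reads the messenger. Some of the proteins have a counterpart in the bacterial ribosome and others were added during the evolution of mitochondria. In the testis, Sertoli cells, germ cells and steroid-producing Leydig cells all contain mitochondria, so the genes mark no single cell type.

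RNA from testes was hybridised to 10 one-colour arrays, 1 per sire code. Fathers were Brown Norway rats, mothers were Sprague Dawley rats, and all pups were therefore crosses of both strains. The fathers had received saline or BEP for 9 weeks and then recovered for 9 weeks before mating. The labels leave BEP unexplained; in testicular cancer the letters usually stand for bleomycin, etoposide and cisplatin given together. Among the codes, 5 have a C and 5 have a T. C was read as saline and T as BEP, which no label states. The sources used here do not give the number of pups behind an array, so the p-values measure the spread between these 10 samples. Slide 1 held C replicates 1 to 3 and T replicates 1 and 2, and slide 2 held C replicates 4 and 5 and T replicates 3 to 5.

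Precision is limited by the number of arrays. Their 75th percentile of signal lay between 1525 and 2686 units, 0 spots were saturated, and values of any pair of arrays correlated at 0.9899 to 0.9966 over the tested probes. Markers of testis cells were also read. All 8 Sertoli markers, 6 germ cell markers, 4 Leydig markers (of 5 on the array) and 4 peritubular markers with a tested probe were well above background on all 10 arrays. Markers of skeletal muscle (5 genes), red blood cells (4 genes) and macrophages (5 genes) were well above background on all arrays too. Tested probes had already passed this filter on at least 5 arrays, and 94.9% of all named genes passed it on all 10. The counts therefore cannot check the label of the tissue.

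All 66 genes were measured well above background on all 10 arrays, against 94.9% of all named genes. Values are given as log2 signal relative to the 75th percentile of the same array. They compare arrays for 1 probe and do not rank genes by amount of RNA. On every array 47 genes lay above the 75th percentile and 14 below it, and 5 crossed it between arrays. By background knowledge of the human mitoribosome, 44 genes belong to the large subunit and 22 to the small one. Mrps18a and Mrps30 are counted with the large subunit, where their proteins sit despite the symbols. The genes lie on 17 chromosomes, with 0 on X or Y. For 21 of them the RefSeq table also holds a pseudogene of the same name, so near-identical copies may share a probe's signal.

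Most of the genes varied little from array to array. The standard deviation over the 10 arrays had a median of 0.078 on the log2 scale, against 0.141 for all named genes, 0.10 for 67 nuclear genes of the respiratory chain and 0.165 for 67 cytosolic ribosomal protein genes. It was under 0.1 in 40 of the 66 genes (60.6%) and in 25.6% of all named genes. Mrps18a, a protein of the large subunit, had the narrowest spread, with 1.72, 1.71, 1.73, 1.83 and 1.75 on the C arrays and 1.79, 1.72, 1.79, 1.75 and 1.73 on the T arrays. The groups overlapped and the 10 values spanned 0.12. In 60 genes this span stayed under 0.5. The exceptions were Mrpl10, Mrpl18, Mrpl47, Mrpl52, Mrps14 and Mrps15.

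The comparison of the groups asked whether treatment of the fathers left a difference in these genes in their pups. No gene passed the threshold: 0 of the 66 had a Benjamini-Hochberg adjusted p under 0.05 with limma, as in all 11561 named genes (0.0%), and no adjusted p over all probes was below 0.9985. Of the 66, 0 had an unadjusted p under 0.05, against 4.01% of all named genes. By sign alone, 25 genes had a higher mean in the T group and 41 a lower one, a share of 37.9% higher against 46.1% of all named genes. Other scalings gave 29 higher (median scaling) and 31 higher (quantile normalization). The median T minus C difference was -0.014 on the log2 scale, beside -0.0089 for all named genes and -0.020 for all tested probes. Large and small subunits gave like counts, with 17 higher and 27 lower in the large subunit (median -0.012) and 8 higher and 14 lower in the small one (median -0.018). The share was similar for genes with a bacterial counterpart (13 higher, 23 lower) and without one (12 higher, 17 lower). In this grouping Mrps18c was counted with a counterpart, and its relatives Mrps18a and Mrps18b were counted without one.

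The intervals of these differences were narrow. The difference was within 0.1 of 0 in 57 of the 66 genes. The 95% interval had a median half-width of 0.138, equal to 1.10-fold. It lay wholly inside a 1.5-fold change either way in 64 of the 66 genes (97.0%), against 90.3% of all named genes. The interval reached beyond 1.5-fold in Mrpl52 (-0.0013 to 0.93) and in Mrps15 (-0.61 to 0.39). For each of the other genes, the interval taken alone held only smaller group differences, in a fit without the slide.

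**Figure D1:**
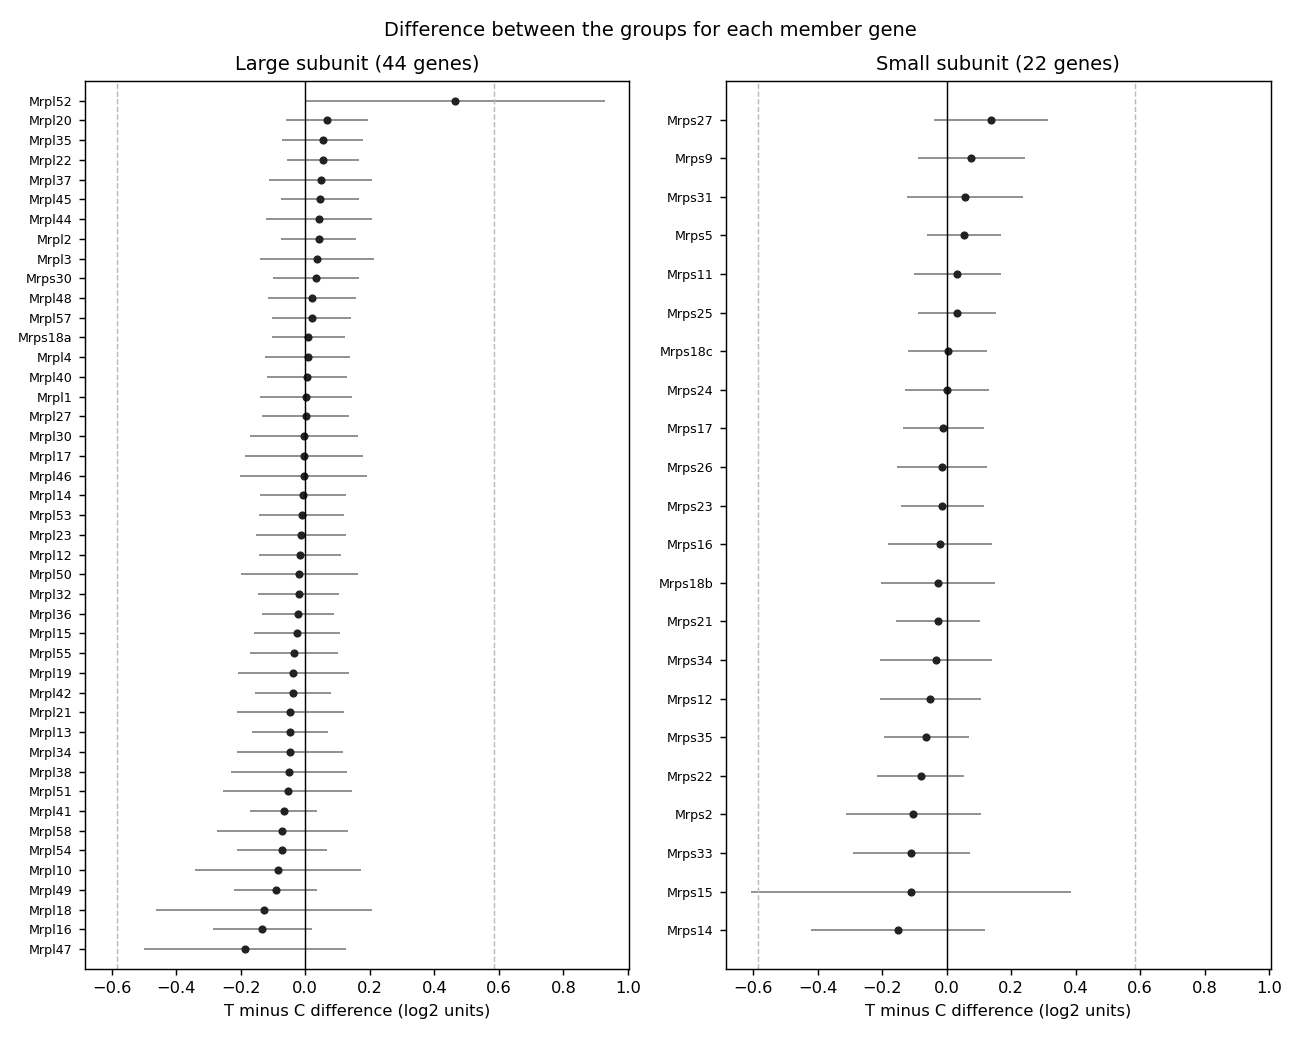
T minus C difference of each of the 66 genes on the log2 scale (points) with its 95% interval from limma (lines), for the 44 genes of the large subunit and the 22 of the small subunit; dashed lines mark 1.5-fold. All points but that of Mrpl52 (0.46) lie between -0.19 and 0.14, and the intervals of Mrpl52 and Mrps15 alone cross a dashed line.

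Mrpl52, a large-subunit protein without a bacterial counterpart, showed the largest difference and the smallest p. Its values were -0.21, -1.23, -1.30, -0.35 and -1.14 on the C arrays and -0.28, -0.42, -0.39, -0.47 and -0.36 on the T arrays. C replicates 2, 3 and 5 lay low, while C replicates 1 and 4 lay with or above the 5 T arrays, so the groups overlapped. The C arrays averaged -0.85 ± 0.52 (SD, n = 5) and the T arrays -0.38 ± 0.069. The difference of 0.46 ± 0.21 (SE), or 1.38-fold, did not pass the test (limma adjusted p = 0.999). A gap of 0.67 separated the 3 low arrays from the other 7, in a whole range of 1.09. Both slides held arrays of either level within the C group. The gene sits on chromosome 15, and its 11 tested neighbours among the 16 nearest protein-coding genes spanned 0.28 to 0.69 over the arrays, against 1.09 for Mrpl52. The correlation of these neighbours with Mrpl52 over the arrays ran from -0.75 (C15h14orf93) to 0.68 (Rem2). Their T minus C differences ran from -0.22 ± 0.11 (SE, C15h14orf93) to 0.26 ± 0.099 (Slc7a7, the adjacent gene). That of Prmt5 was -0.20 ± 0.075, without overlap of its groups, as in 0.778% of all named genes. None of the neighbours passed the test. Oxa1l, a near neighbour whose product inserts proteins made by mitochondrial ribosomes into the inner membrane, correlated at 0.39 and spanned 0.28.

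Mrpl18, a large-subunit protein with a bacterial counterpart, had its largest gap in the middle of its values, with arrays of both groups on either side. It measured 2.47, 2.06, 2.42, 2.38 and 1.99 on the C arrays and 2.54, 2.04, 1.89, 1.86 and 2.34 on the T arrays. The 5 arrays from 2.34 upward comprised 3 C and 2 T arrays, and the 5 arrays up to 2.06 comprised 2 C and 3 T arrays. The gap between them was 0.28, a share of 0.41 of the whole range. That share was 0.61 in Mrpl52 and 0.43 in Mrpl17, so it does not set Mrpl18 apart. The group difference was -0.13 ± 0.15 (SE, limma adjusted p = 0.999).

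Mrpl47, the large-subunit protein with a bacterial counterpart that had the lowest T minus C value, went opposite ways on the slides. Its values were -4.98, -5.08, -4.90, -4.49 and -4.87 on the C arrays and -4.86, -4.69, -5.25, -5.27 and -5.19 on the T arrays. On slide 1 both T arrays lay above the 3 C arrays (difference 0.21), and on slide 2 the 3 T arrays lay below both C arrays (difference -0.56). Over all arrays the difference was -0.19 ± 0.14 (SE). The test of the difference between the slides gave -0.77 ± 0.17 (limma adjusted p = 0.992), which missed the threshold.

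Mrps14, a small-subunit protein with a bacterial counterpart, was set apart by 1 array. It measured -0.89, -0.85, -0.75, -0.95 and -0.96 on the C arrays and -0.81, -0.82, -1.06, -1.49 and -0.97 on the T arrays. T replicate 4 lay 0.43 below the next lowest array, T replicates 3 and 5 also lay below the lowest C array, and T replicates 1 and 2 fell among the C arrays. The group difference was -0.15 ± 0.12 (SE). Mrpl10, of the large subunit, measured 4.78, 4.71, 4.34, 4.27 and 4.51 on the C arrays and 4.61, 4.48, 4.49, 4.42 and 4.18 on the T arrays. Its groups overlapped over most of that range (difference -0.085 ± 0.12), and its second probe gave 0.014 ± 0.068 and correlated with the first at 0.20.

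Mrpl41 was the only gene whose groups did not overlap, which held for 0.778% of all named genes. This large-subunit protein without a bacterial counterpart measured 2.218, 2.193, 2.180, 2.209 and 2.232 on the C arrays and 2.178, 2.114, 2.136, 2.113 and 2.155 on the T arrays. Every T array lay below every C array, but T replicate 1 and C replicate 3 differed by far less than the spread within either group. The difference was -0.068 ± 0.047 (SE), or 1.05-fold lower in the T group (limma adjusted p = 0.999). A second probe for the gene gave -0.017 ± 0.052, and its groups overlapped.

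**Figure D2:**
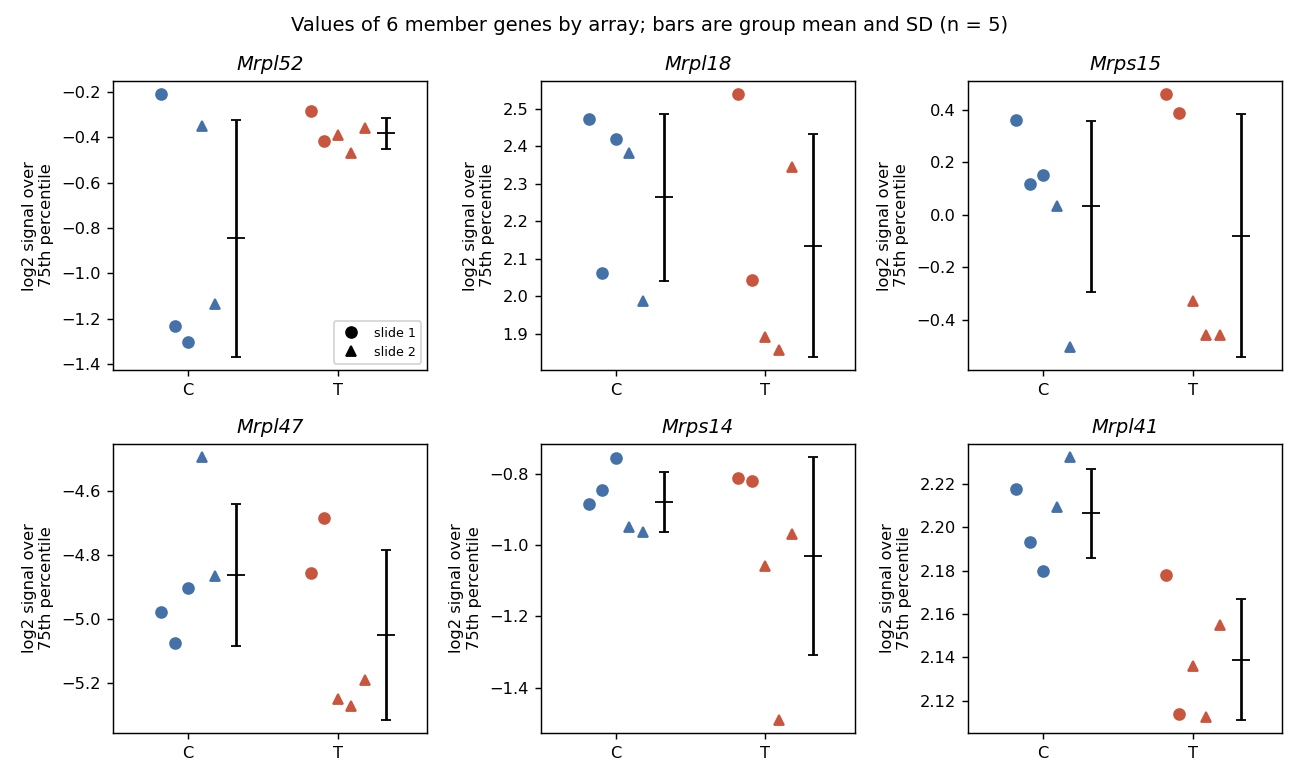
Log2 signal relative to the 75th percentile for 6 genes on each array, C in blue and T in red, circles for slide 1 and triangles for slide 2, with group means and SD (n = 5) as bars; each panel has its own vertical scale. Mrpl52 shows 3 low C arrays and no low T array, Mrps15 separates by slide, and Mrpl41 separates the groups over a span of 0.12.

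Among the remaining genes with the smallest p, 3 of the large subunit and 3 of the small subunit are described. Mrpl16, which has a bacterial counterpart, measured -0.14, -0.022, -0.16, 0.026 and -0.15 on the C arrays and -0.086, -0.18, -0.19, -0.33 and -0.33 on the T arrays. T replicates 2 to 5 lay below all C arrays and T replicate 1 among them, for a difference of -0.13 ± 0.069 (SE, limma adjusted p = 0.999). Mrpl49, without a bacterial counterpart, differed by -0.092 ± 0.058, and Mrpl20, with one, by 0.067 ± 0.057. Mrps27, a small-subunit protein of the pentatricopeptide repeat family, measured -3.15, -3.17, -3.21, -3.41 and -3.18 on the C arrays and -3.24, -3.19, -2.92, -3.00 and -3.07 on the T arrays. The 3 T arrays of slide 2 were above all C arrays and both T arrays of slide 1 fell among them, for a difference of 0.14 ± 0.080 (limma adjusted p = 0.999). Mrps33 and Mrps22, small-subunit proteins without bacterial counterparts, differed by -0.11 ± 0.082 and -0.080 ± 0.061. In all 6 genes the C and T arrays overlapped.

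A further set was chosen for known roles. Mrps12, whose bacterial counterpart helps to form the decoding centre, differed by -0.050 ± 0.071 (SE), with a span of 0.31 over the arrays. Mrpl3, whose bacterial counterpart reaches towards the site of peptide bond formation, differed by 0.035 ± 0.080. Mrpl12, a stalk protein that binds translation factors in bacteria, differed by -0.015 ± 0.057. Mrpl58, a peptidyl-tRNA hydrolase that became part of the large subunit, differed by -0.072 ± 0.092. Mrpl44, a large-subunit protein with a fold of the ribonuclease III family, differed by 0.042 ± 0.075. Mrps2 and Mrps30 differed by -0.10 ± 0.095 and 0.033 ± 0.060. None had a difference of 2 standard errors.

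Of the 11 genes with a pair of probes, 9 had both probes tested. In 5 of these the T minus C differences had opposite signs, and in 2 the probes correlated below 0 over the arrays. For Mrpl35, a large-subunit protein with a bacterial counterpart, the probe used gave 0.054 ± 0.057 (SE) and the other gave -0.23 ± 0.11, with a correlation of -0.40. For Mrps21, of the small subunit, the values were -0.027 ± 0.059 and 0.10 ± 0.15, with a correlation of -0.52. The second probe of Mrpl30 was well above background on 2 arrays and that of Mrpl50 on 3, and neither was tested.

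The slide, which holds arrays of both groups, was tested with the group as a covariate. It called 3 of the 66 genes at an adjusted p under 0.05, against 5.37% of all named genes, and 7 had an unadjusted p under 0.05, against 18.2%. All 3 were lower on slide 2, as were 4.32% of all named genes. Mrps15, a small-subunit protein whose bacterial counterpart binds ribosomal RNA early in assembly, was 1.56-fold lower there. It measured 0.36, 0.12, 0.15, 0.46 and 0.39 on C replicates 1 to 3 and T replicates 1 and 2, the arrays of slide 1. On slide 2 it measured 0.033 and -0.50 on C replicates 4 and 5 and -0.33, -0.46 and -0.46 on T replicates 3 to 5. The slides did not overlap, and 4 of the 5 arrays of slide 2 lay well below all others, with C replicate 4 close to slide 1. The difference was -0.64 ± 0.12 (SE, adjusted p = 0.00744), while the T minus C difference was -0.11 ± 0.22. Mrps15 was called in all 22 settings in which the slide was tested, with adjusted p-values from 0.000361 to 0.0366.

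Mrps34, a small-subunit protein without a bacterial counterpart, and Mrpl21, a large-subunit protein with one, were lower on slide 2 by smaller amounts. Mrps34 lay between 1.77 and 1.89 on the arrays of slide 1 and between 1.595 and 1.690 on those of slide 2 (-0.20 ± 0.051, SE, adjusted p = 0.0382). Mrpl21 lay between 0.18 and 0.29 on slide 1 and between -0.0067 and 0.068 on slide 2 (-0.19 ± 0.049, adjusted p = 0.0400). The slides did not overlap in either gene. Mrps34 was called in 9 and Mrpl21 in 10 of the 22 settings, and both calls were lost without C replicate 2, 4 or 5 or any 1 T array, as was that of Mrps34 without C replicate 1. Mrpl19 and Mrpl58 came next (-0.19 ± 0.054, adjusted p = 0.0601, and -0.22 ± 0.067, adjusted p = 0.0759). A second probe of Mrpl17 was lower on slide 2 by its own test (-0.31 ± 0.075, adjusted p = 0.0273), while the probe used for that gene gave -0.13 ± 0.075 (adjusted p = 0.332).

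The slides also split the signs of the group comparison. Within slide 1, 46 of the 66 genes had the higher mean in the T arrays, and within slide 2, 15 had. The difference in T minus C between the slides was negative in 52 of the 66 genes and in 6803 of all 11561 named genes, with medians of -0.078 and -0.036. It called 0 of the 66 genes at an adjusted p under 0.05, against 0.0% of all named genes, and 2 genes (Mrpl47 and Mrps27) at an unadjusted p under 0.05, against 3.11% of all named genes. In Mrps27 the difference between the slides was 0.33 ± 0.13 (SE, limma adjusted p = 0.992). The probes of these 2 genes gave the lowest signals among those used for the 66 genes.

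The genes were then described by how they moved together over the 10 arrays, a set of values that shares the arrays, their slides and their scaling. The median Pearson correlation over the 2145 pairs of genes was 0.190, with 34.5% of pairs below 0. Over all named genes the median was 0.026, with 47.6% below 0. Nuclear genes of the respiratory chain had a median of 0.590 and cytosolic ribosomal protein genes one of 0.850. The 66 genes stayed between all named genes and the respiratory chain, with the cytosolic genes highest, under median scaling, normexp and the authors' values. In this order, the 4 medians were 0.128, 0.015, 0.428 and 0.801 with the authors' values. With normexp they were 0.128, 0.103, 0.507 and 0.835, so the 66 genes lay little above all named genes. With quantile normalization the 4 medians became 0.072, 0.030, 0.084 and 0.035. For the 66 genes the median was 0.224 after subtracting group means and 0.156 after subtracting slide means. It was 0.201 within the large subunit and 0.147 within the small one, and 0.289 among genes with a bacterial counterpart against 0.081 among those without.

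Each gene was also set against the mean of the other 65. The median correlation was 0.513, with 8 genes above 0.8 (12.1%) and 11 below 0 (16.7%). All named genes, set against the mean of the 66, had a median of 0.123, with 5.13% above 0.8 and 42.1% below 0. Above 0.8 were 53.7% of the respiratory chain genes and 40.3% of the cytosolic ribosomal protein genes. The highest were Mrps16 (0.95) and Mrpl17 (0.940), both with bacterial counterparts, then Mrps21 (0.877), Mrps33 (0.875) and Mrps15 (0.859). Mrps16 measured 3.06, 3.07, 2.96, 3.02 and 2.86 on the C arrays and 3.16, 3.01, 2.97, 2.87 and 2.87 on the T arrays. It was highest on T replicate 1 and lowest on C replicate 5 and T replicates 4 and 5, and the groups overlapped. Mrpl17 ran from 3.33 to 3.72 with the same highest array, and correlated with Mrps16 at 0.946, the highest of all pairs. With quantile normalization the correlation with the other genes was 0.276 for Mrps16 and 0.726 for Mrpl17, and 0 genes were above 0.8. The median was 0.451 with median scaling (4 genes above 0.8, 9 below 0) and 0.422 with normexp (9 and 18). With the authors' values it was 0.343 (1 and 16). Mrps15 fell to 0.382 with median scaling and 0.450 with the authors' values.

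At the other end stood Mrps31 (-0.774), Mrps27 (-0.652), Mrpl38 (-0.607), Mrpl20 (-0.601) and Mrps9 (-0.483). Mrps31, a small-subunit protein without a bacterial counterpart, measured 0.81, 0.72, 0.95, 0.81 and 0.81 on the C arrays and 0.73, 0.78, 0.79, 1.02 and 1.07 on the T arrays. T replicates 4 and 5 were highest, the arrays on which Mrps16 was among the lowest, and the other T arrays overlapped the C arrays. The lowest pair was Mrpl47 with Mrps27 (-0.913), the genes whose probes gave the lowest signals. With quantile normalization the correlation with the other genes was -0.271 for Mrps31 and -0.616 for Mrpl38, and that of Mrps9 turned to 0.314. With median scaling the values of Mrps31, Mrps27, Mrpl38, Mrpl20 and Mrps9 were -0.310, -0.476, -0.73, -0.125 and 0.204.

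**Figure D3:**
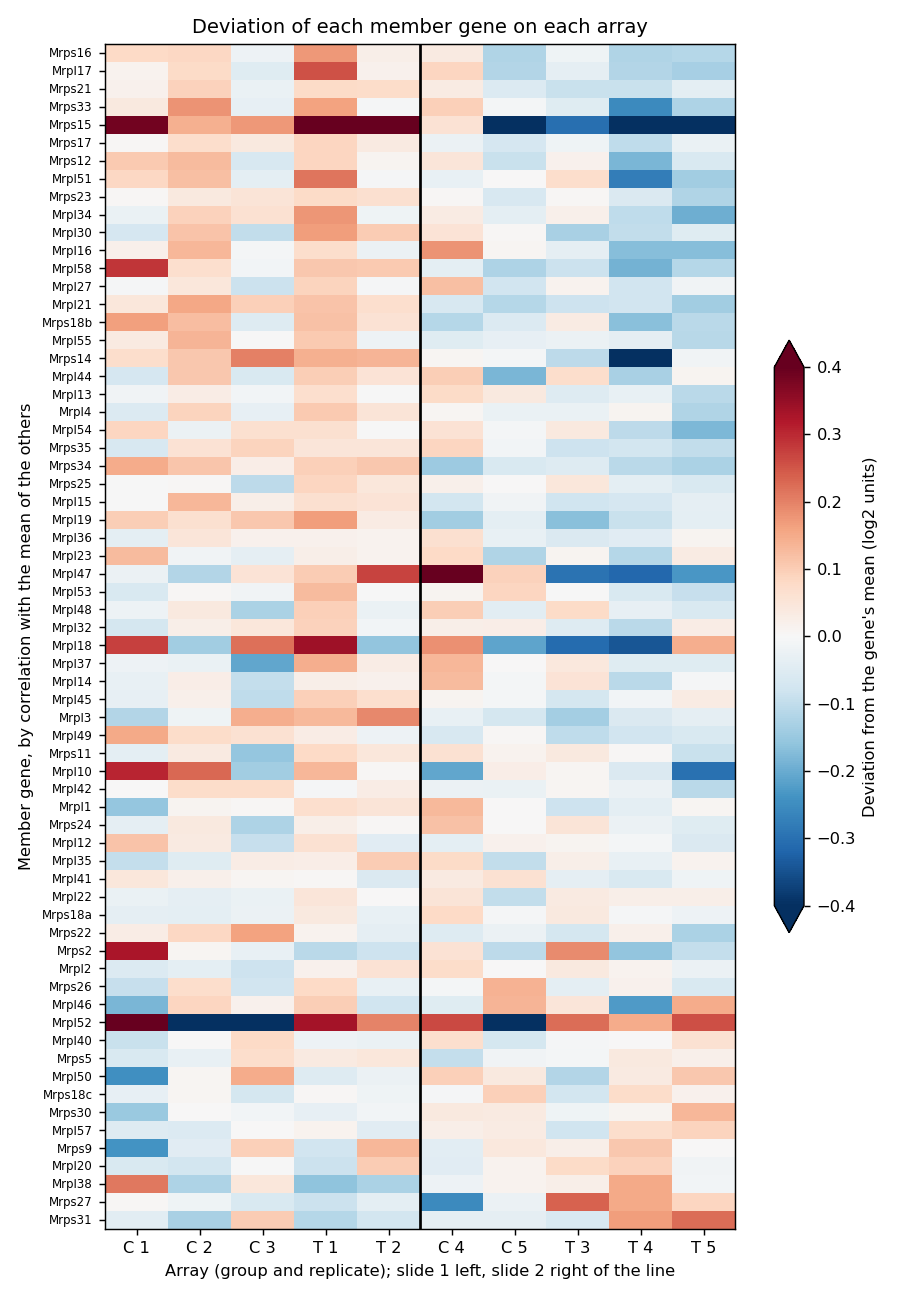
Deviation of each of the 66 genes (rows, ordered by correlation with the mean of the others) from its own mean on each array (columns, slide 1 left of the line and slide 2 right), in log2 units with colours capped at 0.4. T replicate 1 is red for most genes of the upper rows and T replicates 4 and 5 are blue; Mrps15 and Mrpl52 stand out as rows.

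Averaged over the 66 genes, the deviation from each gene's mean was 0.019, 0.028, -0.0084, 0.028 and -0.036 on the C arrays and 0.076, 0.028, -0.022, -0.069 and -0.044 on the T arrays. T replicate 1 was highest and T replicate 4 lowest, so both extremes fell in the T group. The span of 0.145 compared with 0.262 for respiratory chain genes, 0.479 for cytosolic ribosomal protein genes and 0.107 for all named genes. The 75th percentile used for scaling tended to run opposite to these means. The 5 arrays where it was 1525 to 2170 units had means of -0.022 to 0.076 for the 66 genes and -0.032 to 0.225 for the cytosolic genes. The 5 arrays where it was 2349 to 2686 units had means of -0.069 to 0.028 and -0.254 to 0.065. On T replicate 4, the 8 Sertoli markers had their lowest mean deviation (-0.21, against -0.12 to 0.14 on the other arrays) and the 6 germ cell markers their highest (0.24, against -0.10 to 0.087). The 4 Leydig markers were lowest there too (-0.31), though close to C replicate 3 (-0.29). On C replicate 1 the Leydig markers (0.41) and the 4 peritubular markers (0.38) had their highest means. The part of signal level or cell mixture in the means was not tested, and in whole testis fewer cells of a type and less RNA per cell cannot be told apart.

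**Figure D4:**
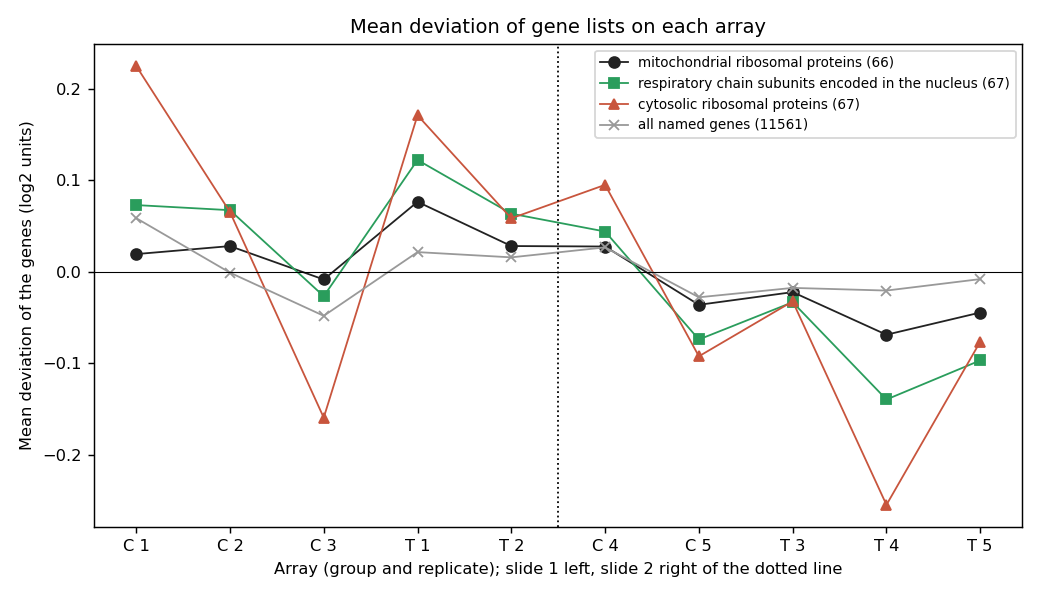
Mean deviation from each gene's own mean (log2 units) on each array, slide 1 left of the dotted line, for the 66 mitochondrial ribosomal protein genes (black), 67 respiratory chain genes (green), 67 cytosolic ribosomal protein genes (red) and 11561 named genes (grey). The 66 genes span 0.145 and the cytosolic genes 0.479, with T replicate 4 lowest in both.

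The 5 named genes outside the list that correlated most with the mean of the 66 over the 10 arrays were H2bc12 (0.969) and Hist2h3c2 (0.968), both histone genes, Pskh1 (0.958), Lamtor5 (0.958) and Krtcap2 (0.958).

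Promoter windows were read for the genes at the ends of this order and for Mrpl52, to show what sequence lies at the start of genes that moved with the others, against them, or by themselves. The windows run from 250 bases before to 50 bases after the start in RefSeq's table of the GRCr8 assembly, and 54 of the 66 genes had one. Capitals mark matches, on either strand, to 5 motifs: NRF1 (a motif of 10 bases with 1 open position), ETS (CCGGAAG), YY1 (AANATGGCG), SP1 (GGGCGG) and the CCAAT box (CCAAT). Each sequence is given 5′ to 3′ on the strand of the gene, Mrps16 from chr15:3967559-3967858 (plus strand), Mrpl17 from chr1:169575650-169575949 (minus), Mrps31 from chr16:76324016-76324315 (minus) and Mrpl52 from chr15:31852686-31852985 (plus).
Mrps16: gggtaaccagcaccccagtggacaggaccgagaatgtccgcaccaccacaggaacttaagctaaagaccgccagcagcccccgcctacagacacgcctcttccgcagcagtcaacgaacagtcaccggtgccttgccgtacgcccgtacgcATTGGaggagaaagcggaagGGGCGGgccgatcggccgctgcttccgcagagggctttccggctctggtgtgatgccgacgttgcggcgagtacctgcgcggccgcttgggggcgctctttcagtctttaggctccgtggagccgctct
Mrpl17: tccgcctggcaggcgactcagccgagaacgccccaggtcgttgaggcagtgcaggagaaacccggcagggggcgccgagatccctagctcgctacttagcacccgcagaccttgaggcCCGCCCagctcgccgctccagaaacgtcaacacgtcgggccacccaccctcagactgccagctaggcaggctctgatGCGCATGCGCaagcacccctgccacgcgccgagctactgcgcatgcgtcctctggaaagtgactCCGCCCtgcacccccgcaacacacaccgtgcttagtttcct
Mrps31: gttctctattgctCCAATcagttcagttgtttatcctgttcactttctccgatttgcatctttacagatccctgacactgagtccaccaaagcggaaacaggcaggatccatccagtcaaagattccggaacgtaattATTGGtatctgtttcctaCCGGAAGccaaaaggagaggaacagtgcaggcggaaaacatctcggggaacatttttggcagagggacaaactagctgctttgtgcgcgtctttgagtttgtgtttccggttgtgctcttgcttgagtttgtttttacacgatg
Mrpl52: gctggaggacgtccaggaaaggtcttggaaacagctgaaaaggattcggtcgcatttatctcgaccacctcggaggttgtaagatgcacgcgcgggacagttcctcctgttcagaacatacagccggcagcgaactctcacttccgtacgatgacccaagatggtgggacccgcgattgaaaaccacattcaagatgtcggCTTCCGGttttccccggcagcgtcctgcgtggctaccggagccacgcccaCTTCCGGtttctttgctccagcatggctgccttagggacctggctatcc
Counting from the first base shown, Mrps16 had a CCAAT box match at 152 and an SP1 match at 172. Mrpl17 had an NRF1 match at 196 between SP1 matches at 119 and 260. Mrps31 had CCAAT box matches at 14 and 139 and an ETS match at 157, and Mrpl52 had ETS matches at 202 and 252. Mrps16 and Mrpl17, which had the highest correlation of all pairs, both matched SP1 and shared no other of the 5 motifs. A match is a description of letters and no evidence of a bound factor.

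Across the 54 windows, matches were counted beside those of 9452 named genes with a tested probe and of all 27457 genes in the table. NRF1, the ETS factor GABP and YY1 are known for their part in the control of nuclear genes for mitochondria. The NRF1 letters occurred in 9 windows (16.7%), against 9.18% and 4.82%. The ETS letters occurred in 19 (35.2%), against 16.7% and 9.63%. The YY1 letters occurred in 12 (22.2%), against 5.62% and 3.45%. The SP1 letters occurred in 28 (51.9%), against 59.3% (5604 genes) and 36% (9885 genes), and the CCAAT letters in 26 (48.1%), against 38.8% and 39.6%. A window could match several motifs.

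**Figure D5:**
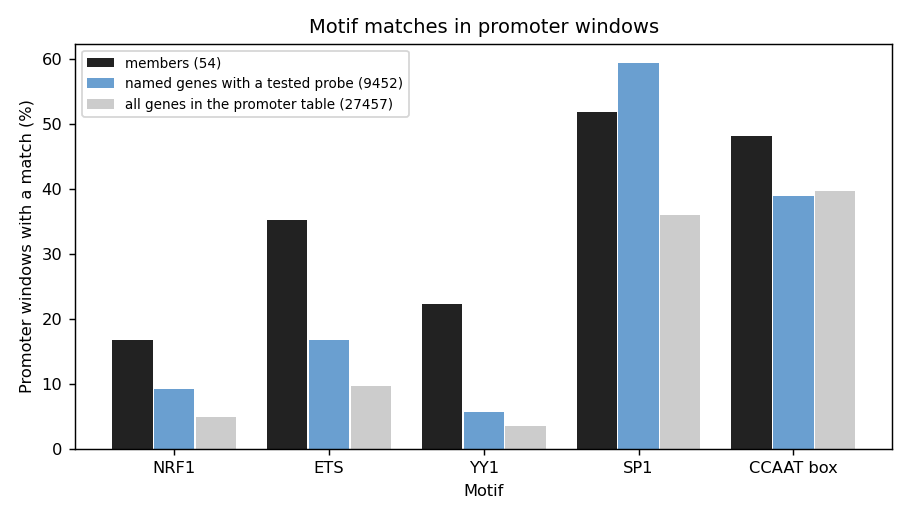
Share of promoter windows (%) with at least 1 match to each of 5 motifs, for 54 mitochondrial ribosomal protein genes (black), 9452 named genes with a tested probe (blue) and all 27457 genes in the table (grey). The shares of the black bars are highest for NRF1, ETS, YY1 and the CCAAT box, and for SP1 the blue bar is higher.

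The genes that build, serve or use these ribosomes were read from further lists, none with a gene called between C and T by limma (adjusted p under 0.05), where 0.0% of all named genes were called. The 5 subunits with other symbols (Dap3, Ptcd3, Chchd1, Aurkaip1 and Gadd45gip1) had 1 gene higher and 4 lower in the T group (median -0.035). All 5 had a higher mean on slide 2, and the limma test called 1 of them between the slides, against 5.37% of all named genes: Ptcd3, a pentatricopeptide protein of the small subunit (0.28 higher on slide 2, adjusted p = 0.0324). In the other lists the slide test called genes lower on slide 2, as it did 4.32% of all named genes. They were the assembly factor Eral1 (-0.51, adjusted p = 0.0450) and the RNA-binding protein gene Lrpprc (-0.20, adjusted p = 0.0494). To these came 6 of 67 respiratory chain genes and 3 of 67 cytosolic ribosomal protein genes. The 5 subunits with other symbols had a median correlation of -0.449 with the mean of the 66 genes. Of 24 tested assembly and ribosomal RNA modification factors, 8 were higher and 16 lower (median -0.037). Of these, 2 had an unadjusted limma p under 0.05, against 4.01% of all named genes: Grsf1, an RNA granule protein (-0.15 ± 0.063, SE), and Ybey, an endoribonuclease (-0.19 ± 0.079), each with an adjusted p of 0.999.

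Among 13 translation factors, 8 had a higher mean on the T arrays and 5 a lower one (median 0.0056; 5 and 8 with normexp background correction), and of 16 mitochondrial aminoacyl-tRNA synthetase genes 8 were higher and 8 lower (median 0.0035; 7 and 9 with normexp). The 10 genes that copy and transcribe mitochondrial DNA had 3 higher and 7 lower (median -0.049). Among 9 regulators of mitochondrial biogenesis, 6 were higher and 3 lower (median 0.024). In that list Yy1, the factor whose letters were searched above, averaged -1.05 on the C arrays and -1.21 on the T arrays, without overlap, as in 0.778% of all named genes (-0.17 ± 0.056, SE, limma adjusted p = 0.999). Nrf1 and Gabpa differed by 0.11 ± 0.073 and 0.0071 ± 0.073. The respiratory chain genes had 17 higher and 50 lower (median -0.030), and the cytosolic ribosomal protein genes 3 higher and 64 lower (median -0.049), each with 0 genes at an unadjusted p under 0.05. Median scaling, normexp and the authors' values kept most genes of these 2 lists lower (61, 62 and 59 of the cytosolic genes; 46, 44 and 43 of the respiratory chain genes). With quantile normalization, 37 respiratory chain genes had a higher and 30 a lower mean on the T arrays, and 35 cytosolic genes a higher and 32 a lower one. Within slide 1 alone the counts were 55 against 12 and 64 against 3. Single arrays also carried these splits: without T replicate 4 the counts were 33 against 34 and 38 against 29, and without C replicate 1 the cytosolic genes stood at 34 against 33.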

How the data were processed

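The members and gene lists were chosen with earlier results of these data known. RNA of 10 testis samples was labelled with Cy3 (100 ng), per the labels' protocols. The deposited scanner files hold spot intensities from Agilent Feature Extraction 10.7.3.1, per the file headers (10.7 in the submitters' processing notes), background-subtracted and not scaled between arrays. The authors' own table of log2 values, centred per probe and with column medians of -0.0169 to 0.0288, served as an alternative; its scaling is unknown.

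Processed signals were converted to log2, minus each array's 75th percentile over 58717 non-control spots. Spots with an outlier flag (494 to 745 per array) were set missing, and spots of a probe were averaged. A probe was tested if well above background on at least 5 arrays. Symbols came from RefSeq's GRCr8 table through unversioned accessions (17998 of 30367 probes matched). The probe with the highest mean stood for a gene. The C and T groups, the slides (with group as covariate) and the group by slide interaction were fitted to all 21892 probes with limma 3.58.1 in R 4.3.3 (lmFit, eBayes, two-sided, Benjamini-Hochberg). Only the fit of the C and T groups was tested on simulated data. Correlations are Pearson's, with no p.

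Named genes were those with an adjusted p under 0.05 in any fit, those without overlap, the smallest p for group (10) and slide (5), the 5 highest and lowest correlations, the 5 widest spreads, genes with discordant probes, and a fixed panel, of which Mrpl11 and Mrps7 were not analysed here. Further genes were named after their values were seen: Mrpl10, Mrpl30, Mrpl50 and neighbours of Mrpl52. Alternatives covered background correction, scaling, filters, probes, variance model, weights, slide, sire number, the authors' values and each array left out.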

Additional observations from a re-analysis of the deposited data

Results flagged for a closer look

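In 62 checks of a group of 5 arrays, a lone array lay far from the other 4 in 5 cases. Chance flags about 1 in 20 such groups, so this number is near what chance gives. Mrps18a was at 1.83 on C replicate 4, against 1.71 to 1.75 on the other C arrays. Mrps2 was at -2.20 on T replicate 3, against -2.55 to -2.47 on the other T arrays. Mrps27 was at -3.41 on C replicate 4, against -3.21 to -3.15. Mrps30 was flagged in both groups, at 1.19 on C replicate 1 against 1.33 to 1.38, and at 1.47 on T replicate 5 against 1.30 to 1.35. All values are log2 signals relative to the 75th percentile, and the causes were not tested.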

How the results depend on the processing

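No alternative gave a gene with an adjusted p under 0.05 between C and T, and 0 to 2 genes had an unadjusted p under 0.05. The count of genes higher in the T group (25) was 46 within slide 1 and 15 within slide 2, and ran from 20 to 35 with 1 array left out. The median difference (-0.014) was 0.034 within slide 1, where the median of all probes was 0.013, and ran from -0.034 to 0.0045 with 1 array left out, turning positive without T replicate 4. With the sire code's first number as a replicate block, the count was 41 and the median 0.014. Only numbers 2, 4 and 6 occur in both groups, so that fit compares the groups through their arrays alone. Deviations of same-numbered C and T arrays correlated at -0.512 (number 2), 0.283 (number 4) and 0.194 (number 6). The arrays of number 2 lay on different slides, while those of numbers 4 and 6 shared a slide. Whether the numbers pair the samples therefore cannot be told from these values. The median pair correlation (0.190) was 0.072 with quantile normalization and 0.129 to 0.236 with 1 array left out; it has no value for the variance model, array weights, within slides or the replicate block. The slide comparison called 1 gene in place of 3 with quantile normalization, median scaling, no filter on dim probes or the authors' values, 5 with trend and robust variance or without the group term, and 1 to 4 with 1 array left out. Mrpl47 went from -0.19 to 0.21 (SE 0.11, adjusted p = 0.9998) within slide 1. Of 720 values of the 30 named genes under alternatives, 668 kept the sign, 0 were called, and Mrpl52 ran from 0.34 to 0.62. The causes were not tested. Normexp was run on the median spot signal. All probes used were well above background on 10 arrays, a filter that 94.9% of all named genes passed. Signals still differed between probes, with those of Mrpl47 and Mrps27 the lowest, and the part of signal level in their values was not tested.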
